A study of Oryza sativa Japonica Group with 9 samples.

Results

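Arbuscule-containing cells of the rice root cortex were compared with cortical cells of roots that had received no fungus. The comparison used the 6 arrays that the sample titles name as arbusculated or mock, 3 per group, of 9 arrays in all. The other 3 arrays, of systemic cells, were cortical cells of colonised roots that held no fungus, and they entered the fit as a group of their own. All 9 samples came from the cultivar Nipponbare, grown under the same feeding and harvested at 7 weeks, and about 2000 cortical cells were cut from root sections by laser for each. Plants of the arbusculated and systemic groups had been given 250 spores of Rhizophagus irregularis at planting, and mock plants none. Which plants each sample came from is not labelled, so the p-values measure the spread between these samples, which may be technical.

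An arbuscule is a finely branched fungal structure inside a cortical cell, wrapped by a plant membrane across which phosphate and ammonium reach the plant and sugars and lipids reach the fungus. The cell builds this membrane, supplies fatty acids, and is known in many plants to run its plastid isoprenoid pathway towards carotenoid cleavage products. PT11 is the rice phosphate transporter of the membrane around arbuscules, and its transcript marks these cells.

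The 9 arrays had median log2 values of 5.42 to 5.54. Mock array 2 stood apart: across probe sets it correlated on average at 0.878 with arbusculated arrays but at 0.853 with its own group. The 3′ minus 5′ difference of 7 control pairs, a measure of RNA quality, was 0.69 ± 0.46 (log2, SD, n = 3) where arbuscules were present and 0.292 ± 0.18 in mock cells. Of 57258 probe sets, 22436 were paired with exactly 1 gene, and these measured 17905 genes, 3444 of them with more than 1 probe set. Only 2425 genes had an informative name. In the comparison, limma passed 107 probe sets (0.187%), 102 higher (0.178%) and 5 lower (0.00873%) in arbusculated cells. On the gene level, where a gene counts when at least 1 of its own probe sets passed, 63 genes rose (0.352%) and 2 fell (0.0112%), and 8 of the genes that rose had a name. The calls and the general lean of the arrays ran different ways. Over all 57258 probe sets the median change was -0.12, and the arbusculated arrays lay above all mock arrays in 6.64% and below them in 14.0%. Probe sets paired with 1 gene had a median of 0.18, and the 34822 others had -0.24. For genes, taken as the mean of their probe sets, the median was 0.20, 63.0% were above 0, and the groups were apart in 11.3% higher and 5.46% lower. The gene lists described here are read against these gene values, and 26 of the 30 lists with at least 3 genes had a median that moved over 1.5 times when 1 array was left out. RNA was measured per pool of cells, so fewer cells of a type and less RNA per cell cannot be told apart.

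The 102 rises were large and mostly started low. They ran from 1.57 to 8.54 on the log2 scale with a median of 2.71. Of them, 84 were over 4-fold and 16 over 16-fold, and 77 had a mock mean below 5.51, the median mock mean of all probe sets. In all 102, every systemic array lay below the lowest arbusculated array. The share of all probe sets with this order was not counted. The 102 were picked for high arbusculated values in a fit that held the systemic arrays, so the count is no separate result. The deposited values carry no detection call, so whether a low mock value lay above background is not known here. Mock array 2 was the highest of the mock arrays in 25 of these 102 probe sets, against 29.5% of all probe sets. Leaving it out raised the count from 107 to 169, and leaving out mock array 1 lowered it to 20. All 107 kept their direction with any array left out, and 14 of them kept their call.

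The largest rise belonged to LOC4347898, a gene that the tables do not name. Its log2 values were 12.62, 12.83 and 12.60 on the arbusculated arrays against 4.43, 3.91 and 4.09 on the mock arrays and 4.11, 3.56 and 3.86 on the systemic arrays. The groups lie far apart, and systemic cells sit with mock cells. The rise was 8.54 ± 0.23 (SE, n = 3 per group; limma adjusted p = 5.08e-06), which is 373-fold.

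LOC4347897 lies near LOC4347898 on chromosome 9 of assembly ASM3414082v1, with 1 coding gene between them. Its arbusculated values were 10.93, 11.30 and 10.42, and its mock values 3.38, 3.06 and 3.31. It rose by 7.63 ± 0.26 (limma adjusted p = 1.93e-05). No other called genes lay this close, with at most 4 coding genes between neighbours as the limit looked at. LOC4329556 read 10.89, 10.80 and 10.29 in arbusculated cells and 2.29, 3.02 and 3.16 in mock cells, a rise of 7.83 ± 0.32 (limma adjusted p = 6.77e-05). LOC4326659 read 9.68, 9.45 and 9.61 against 3.53, 3.06 and 4.43, a rise of 5.91 ± 0.33 (limma adjusted p = 0.000707). These genes were on or near the bottom of the scale in mock and systemic cells and among the brighter signals in cells with arbuscules, and each kept its call in every alternative that could be run on it.

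The next unnamed genes were LOC4350066, LOC4341880 and LOC4347234. LOC4350066 had a probe set at 9.26, 9.34 and 9.21 with arbuscules and 5.17, 2.85 and 3.06 in mock cells, a rise of 5.57 ± 0.6 (limma adjusted p = 0.016), and a second probe set at -0.08. LOC4341880 rose by 5.09 ± 0.73 and LOC4347234 by 4.81, with limma adjusted p of 0.0477 and 0.0387, and each kept its call with only 1 of the 9 arrays left out in turn. The 12 that follow, LOC4325382, LOC4339232, LOC9268279, LOC4338594, LOC4346237, LOC4326925, LOC4333555, LOC4346359, LOC4327715, LOC4333846, LOC4324944 and LOC4337318, rose by 4.54 down to 3.66. Of these LOC4333846, at 3.78, kept its call in every alternative, with an adjusted p of at most 0.0304. At the other end, LOC9268279 kept the call in 1 of the 9 fits that leave out an array, and LOC4346237, LOC4326925 and LOC4324944 in 2 each, with adjusted p of up to 0.143, 0.129, 0.142 and 0.122.

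**Figure D1:**
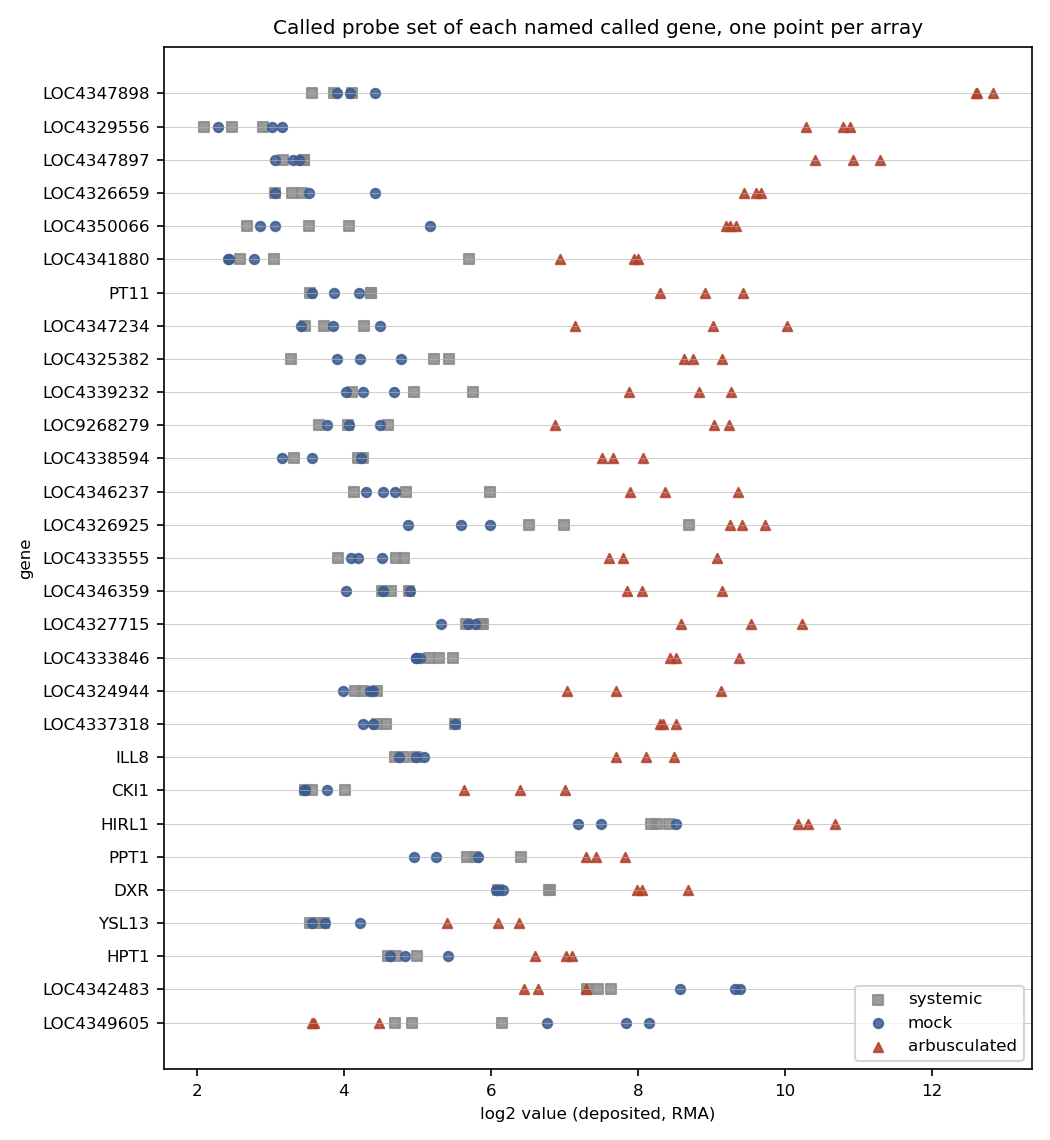
Log2 values (x axis) of the called probe set of each named or top-ranked called gene (y axis), 1 point per array. In LOC4347898 the arbusculated arrays lie between 12.60 and 12.83 and the mock arrays between 3.91 and 4.43, and systemic arrays sit with mock arrays for most rises.

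Among the 34822 probe sets paired with no gene or several, 42 passed, and the largest rises were of similar size. Of the 22436 paired with 1 gene 65 passed, and of all probe sets 0.187%. OsAffx.29504.1.S1_at rose by 5.84 ± 0.44, from 4.66, 4.75 and 5.00 in mock to 11.18, 11.28 and 9.48 in arbusculated cells (limma adjusted p = 0.0039). OsAffx.6454.1.S1_at rose by 5.16, Os.50423.1.S1_x_at by 4.02, Os.2821.1.A1_at by 3.94 and OsAffx.4251.1.S1_at by 3.93. Without a single gene paired with them, their functions are not given.

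Phosphate transport in arbusculated cells turned on 1 probe set of PT11 (LOC4324187). That probe set read 9.43, 8.91 and 8.30 on the arbusculated arrays, 4.20, 3.87 and 3.56 on the mock arrays and 3.55, 4.37 and 4.37 on the systemic arrays. It rose 32-fold, by 5.00 ± 0.36 (limma adjusted p = 0.00303), a call that survived the loss of any array. On that probe set the level of PT11 went with the label of all 9 arrays. Of the arbuscule markers looked for, PT13, STR1, STR2, AM1, AM3, AM14, RAM1 and RAM2 were not found by name and are not analysed here. Most measured genes carry no name, so whether the arrays measured these markers is not known here.

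The other 3 probe sets of PT11 did not pass the test. A second probe set read 7.26, 7.64 and 6.67 in arbusculated cells and 6.14, 4.52 and 4.86 in mock cells, with no overlap, at 2.01 ± 0.56 (limma adjusted p = 0.27). The remaining probe sets read 5.81, 6.0 and 5.64 against 6.38, 6.20 and 5.87, and 4.18, 4.29 and 3.97 against 6.17, 4.08 and 4.61. Their changes were -0.33 ± 0.22 and -0.81 ± 0.69. The mean over all 4 was 1.47 ± 0.4 (limma adjusted p = 0.245 over averaged genes), so the gene's call rests on the responding probe set.

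**Figure D2:**
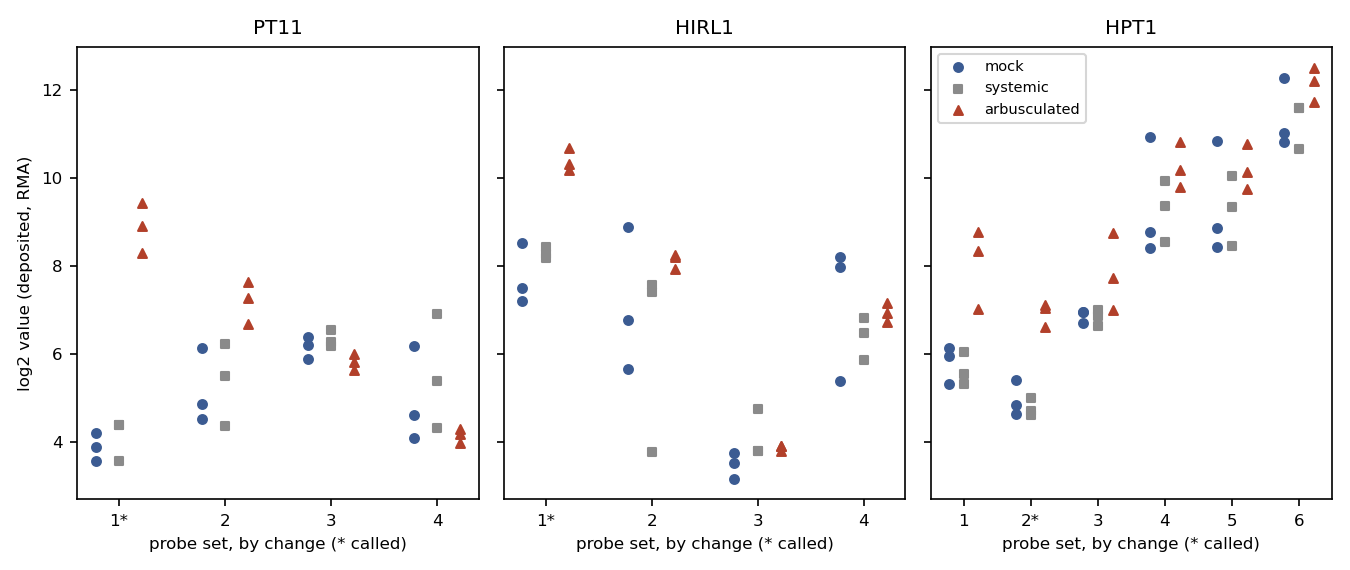
Log2 values (y axis) of every probe set of PT11, HIRL1 and HPT1 on each array, ordered by change (x axis), with an asterisk on the called probe set. The first PT11 probe set separates arbusculated arrays (8.30 to 9.43) from mock arrays (3.56 to 4.20), while the 6 probe sets of HPT1 are all higher on average.

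The PHT1 family, to which PT11 belongs, takes up phosphate across the plasma membrane. Of its 9 measured genes 5 had a mean change above 0, the median was 0.27 against 0.20 for all genes, and PT11 alone had a called probe set. PT8 (LOC4348741), a transporter of root uptake, had probe sets at 2.19, 1.90 and -0.12. On the brightest of them it read 10.10, 10.30 and 9.85 with arbuscules and 8.69, 7.20 and 7.78 in mock cells, without overlap, but systemic array 2 read 11.10 and the change did not pass (limma adjusted p = 0.439). PT2 stood at 0.95, PT4 at 0.77, PT1 at 0.27, PT12 at -0.37, PT3 at -0.37, PT7 at -0.48 and PT6 at -1.39, as means over all their probe sets. In PT6 mock array 2 read 8.24 where the other mock arrays read 4.74 and 5.02. The family median was 0.82 without mock array 2 and -0.20 without mock array 3.

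None of the genes listed for the response to low phosphate passed. Of 11 measured, 9 (81.8%, against 63.0% of all genes) had a mean change above 0, with a median of 0.73 that was 0.415 without mock array 1 and 0.477 without arbusculated array 1. In none did the groups separate, against 11.3% of all genes apart higher and 5.46% lower. SPX2 and SPX5, whose SPX domains sense phosphate status, stood at 1.47 ± 0.95 and 1.09 ± 0.56, and the exporter PHO1-3 at -0.18.

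Nitrogen transport genes on the list showed no call. AMT3;1 (LOC4324937), an ammonium transporter known from arbusculated rice roots, had a probe set at 8.02, 8.53 and 7.34 in arbusculated cells and 7.11, 6.77 and 6.99 in mock cells. The arbusculated arrays lay above all mock arrays, at 1.01 ± 0.32 (limma adjusted p = 0.298), while its other probe set stood at -0.15. Over 16 genes of ammonium and nitrate transport and assimilation the median was 0.12, with 8 above 0, and it ran from 0.0158 without arbusculated array 3 to 0.192 without mock array 3. Glutamine synthetase GLN1-2 stood at 0.83 and the ammonium transporter AMT1-2 at 0.83, against AMT2-2 at -1.14 and AMT3-2 at -0.32.

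Plastid isoprenoid synthesis gained transcript at DXR (LOC4326153), the reductoisomerase at its committed step. DXR read 7.99, 8.69 and 8.06 in arbusculated, 6.16, 6.07 and 6.10 in mock and 6.79, 6.80 and 6.10 in systemic cells. The groups did not overlap, and the rise was 4.39-fold, 2.13 ± 0.27 (limma adjusted p = 0.0299). Of the 11 measured genes that make isoprenoids, carotenoids and strigolactones, 8 were above 0 with a median of 0.41, which was 0.163 without arbusculated array 3 and 0.644 without arbusculated array 1. In 4 of them (36.4%) arbusculated arrays lay above all mock arrays, against 11.3% of all genes, and in none below, against 5.46%. Besides DXR these were phytoene synthase PSY2 at 1.87 ± 0.91, and, chosen after their values were seen, the carotenoid cleavage dioxygenase CCD7 at 1.76 ± 0.38 and the phytoene desaturase PDS at 1.69 ± 0.81. None of the last 3 passed. PSY1 stood at -0.41 and HMGR3, a reductase of the cytosolic isoprenoid route, at -0.11.

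HPT1 (LOC4341727, also named VTE2-1) joins homogentisate to a phytyl chain in the synthesis of tocopherol, a plastid isoprenoid. It was the called gene with the most probe sets, 6, and all were higher in arbusculated cells, by 0.77 to 2.25. The called probe set read 6.60, 7.03 and 7.11 in arbusculated, 4.84, 5.41 and 4.63 in mock and 4.60, 4.99 and 4.70 in systemic cells, a rise of 1.95 ± 0.26 (limma adjusted p = 0.0379). The probe set with the highest change read 7.01, 8.34 and 8.76 against 6.13, 5.94 and 5.30, at 2.25 ± 0.46 (limma adjusted p = 0.144). On the 3 probe sets with the highest values mock array 2 overlapped the arbusculated arrays, for instance 10.92 against 9.79, 10.17 and 10.82. The mean over all 6 was 1.28 ± 0.42 (limma adjusted p = 0.318 over averaged genes).

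Fatty acid synthesis held the gene with the largest change among lists without a call. Host lipids feed the fungus, which cannot make its own fatty acids. ACC2 (LOC4338322), an acetyl-CoA carboxylase that makes the malonyl-CoA for fatty acids, read 11.19, 11.19 and 10.67 with arbuscules and 7.88, 7.59 and 7.24 in mock cells. The groups lay far apart at 3.45 ± 0.87, yet the systemic arrays spread from 5.13 to 9.04 and the change did not pass (limma adjusted p = 0.238). Fitted on the 6 arbusculated and mock arrays alone it passed, with an adjusted p of 0.028, while the same fit lost the calls of DXR, YSL13, CKI1, HIRL1, HPT1 and PPT1.

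ENR (LOC4345286), the enoyl reductase of the fatty acid cycle, read 10.40, 9.86 and 9.08 in arbusculated, 7.65, 6.34 and 6.32 in mock and 6.16, 6.94 and 6.18 in systemic cells. At 3.01 ± 0.47 it missed the threshold over probe sets (limma adjusted p = 0.0675) and passed over averaged genes (adjusted p = 0.0412). Of the 7 genes listed for lipid synthesis 6 were above 0, with a median of 0.52 that was 0.329 without arbusculated array 1 and 1.08 without arbusculated array 2. The lipid transfer protein LTP stood at -0.60, and its family member LTPL1, chosen after its value was seen, at 1.13.

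Symbiosis signalling, which senses fungal signals and drives calcium oscillations in the nucleus, had 5 of 7 genes above 0 and a median of 0.29. CERK1, a receptor kinase for chitin fragments, read 6.55, 6.35 and 6.62 in arbusculated cells and 5.23, 5.80 and 4.83 in mock cells, at 1.22 ± 0.34 (limma adjusted p = 0.268). The ion channel POLLUX stood at 0.80, CASTOR, a related channel, at -0.43 and the chitin-binding LYP4 at -0.57. The median was 0.04 without arbusculated array 1 and 0.584 without arbusculated array 2.

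Among the hormone genes on the lists the test passed in auxin metabolism alone. Genes without a name could not enter a list. ILL8 (LOC4342839), an ILR1-like hydrolase that frees auxin from its conjugates, read 7.71, 8.49 and 8.12 in arbusculated, 4.98, 5.10 and 4.75 in mock and 4.98, 4.81 and 4.70 in systemic cells. It rose by 3.16 ± 0.24 (limma adjusted p = 0.00399) and kept its call in every alternative. GH3-2 (LOC4326893), of the family that forms such conjugates, read 9.24, 9.23 and 9.32 against 6.39, 7.27 and 6.92, at 2.41 ± 0.44 without passing (limma adjusted p = 0.106). Over all 68 auxin genes the median was 0.21, near the 0.20 of all genes, but without mock array 2 it was 0.0757 where all genes had 0.256. It was 0.139 without arbusculated array 3. Groups were apart in 11 auxin genes higher (16.2%, against 11.3% of all genes) and 4 lower (5.88%, against 5.46%). The repressor IAA31 stood at -1.44 and the response factor ARF13 at -1.02. In each probe set of IAA31 1 mock array stood out. Mock array 2 read 10.91 beside 5.87 and 5.47, and mock array 1 read 7.58 beside 3.69 and 3.89.

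Gibberellin genes had 8 of 9 above 0 and a median of 0.39. The oxidases D35 and KAO, which turn ent-kaurene into the gibberellin skeleton, stood at 1.36 ± 0.56 and 1.90 ± 0.51, both with groups apart, and the DELLA-like SLRL1 at -0.20. None passed.

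Jasmonate and cytokinin genes had medians of -0.06 over 34 genes and -0.05 over 31, and both medians crossed 0 when 1 array was left out. The jasmonate median ran from -0.237 without arbusculated array 1 to 0.0174 without arbusculated array 3, and that of cytokinin from -0.102 without arbusculated array 3 to 0.0879 without arbusculated array 2. Within the former, the repressor JAZ8 stood at 2.33 ± 0.64 and the receptor COI1B at 1.58, while the synthesis genes AOS3 and OPR5 stood at -1.06 and -0.78. Among cytokinin genes, LOGL1, which releases active cytokinin, stood at 1.54 and the response regulator RR6 at 1.26, against CKX4, which degrades cytokinin, at -1.54 and RR4 at -1.24. The 88 genes of ethylene, abscisic acid, ERF and PP2C families had a median of 0.38 with 60 above 0, and the median was 0.221 without arbusculated array 3 and 0.245 without mock array 1. Phosphatases PP2C39 and PP2C40 stood at 2.29 and 1.83, PP2C78 at -0.98 and the cold-responsive regulator DREB1B at -1.0.

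Metal transport gained transcript at YSL13 (LOC4336441), a yellow stripe-like transporter of the family that carries metal chelates. YSL13 read 6.38, 6.10 and 5.41 in arbusculated, 4.22, 3.57 and 3.74 in mock and 3.73, 3.62 and 3.55 in systemic cells, a rise of 2.12 ± 0.29 (limma adjusted p = 0.0387). YSL14, of the same family, read 8.76, 9.35 and 8.67 against 7.09, 7.31 and 6.75, at 1.88 ± 0.36 (limma adjusted p = 0.121). The zinc transporter ZIP4 stood at -1.57 and NAS3, which makes the chelator nicotianamine, at -1.07. The list as a whole had a median of 0.20 over 53 genes, which was 0.065 without arbusculated array 3, 0.0905 without mock array 1 and 0.392 without arbusculated array 2. Groups were apart in 4 genes higher (7.55%, against 11.3% of all genes) and 4 lower (7.55%, against 5.46%).

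**Figure D3:**
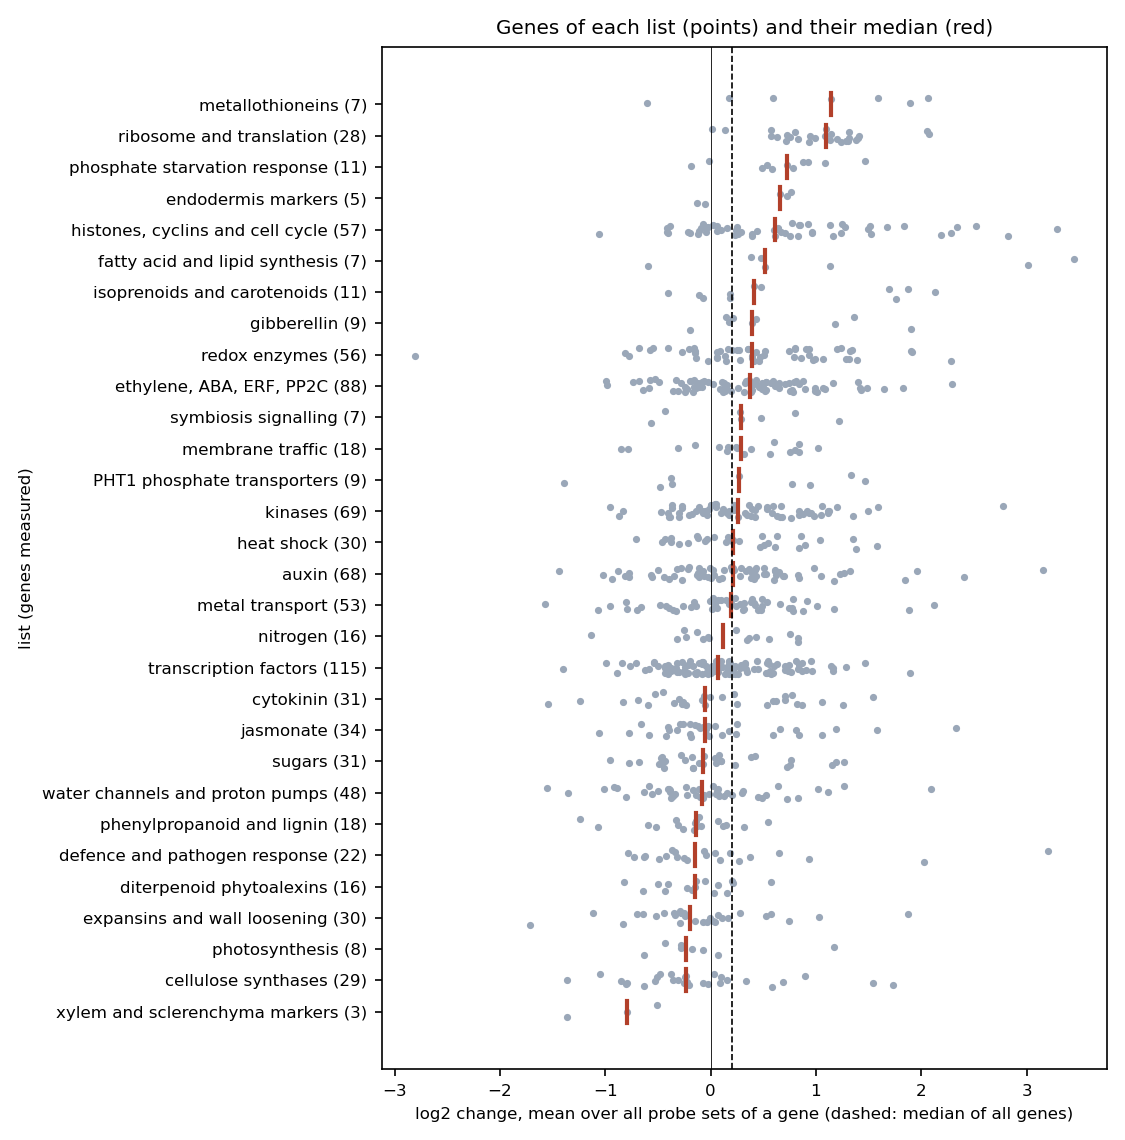
Mean log2 change over all probe sets of each gene (points, x axis) in each list with at least 3 measured genes (y axis, number of genes in brackets), with the list's median as a bar and the median of all genes, 0.20, as a dashed line. Ribosomal genes lie above 0 in 28 of 28, and the xylem markers below 0 in 3 of 3.

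Ribosomal proteins and translation factors were above 0 in 28 of 28 genes, with a median change of 1.10, and none passed. RPL5 and RPL7A-1, proteins of the large ribosomal subunit, stood at 2.07 ± 0.9 and 2.05 ± 0.85. Median log2 levels of the list were 8.65, 8.10 and 8.48 on the arbusculated arrays and 6.48, 8.20 and 6.69 on the mock arrays, so mock array 2 lies among the arbusculated arrays. The groups were apart, all higher, in 6 of 28 genes (21.4%, against 11.3% of all genes). Without mock array 2 the median was 1.46. Bright genes at large also leaned higher. The 3′ minus 5′ difference was higher on average in arbusculated cells but overlapped, at 1.14, 0.712 and 0.217 against 0.483, 0.26 and 0.133 in mock cells. The 17905 genes were cut into 4 bins by mean level over all 9 arrays. From dim to bright, median changes were 0.01, 0.14, 0.28 and 0.48, with 50.6%, 59.0%, 66.6% and 75.8% of genes above 0. The level includes the arbusculated arrays, so a rise in them also lifts a gene's level. The part of level and of RNA quality in these values was not tested.

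**Figure D4:**
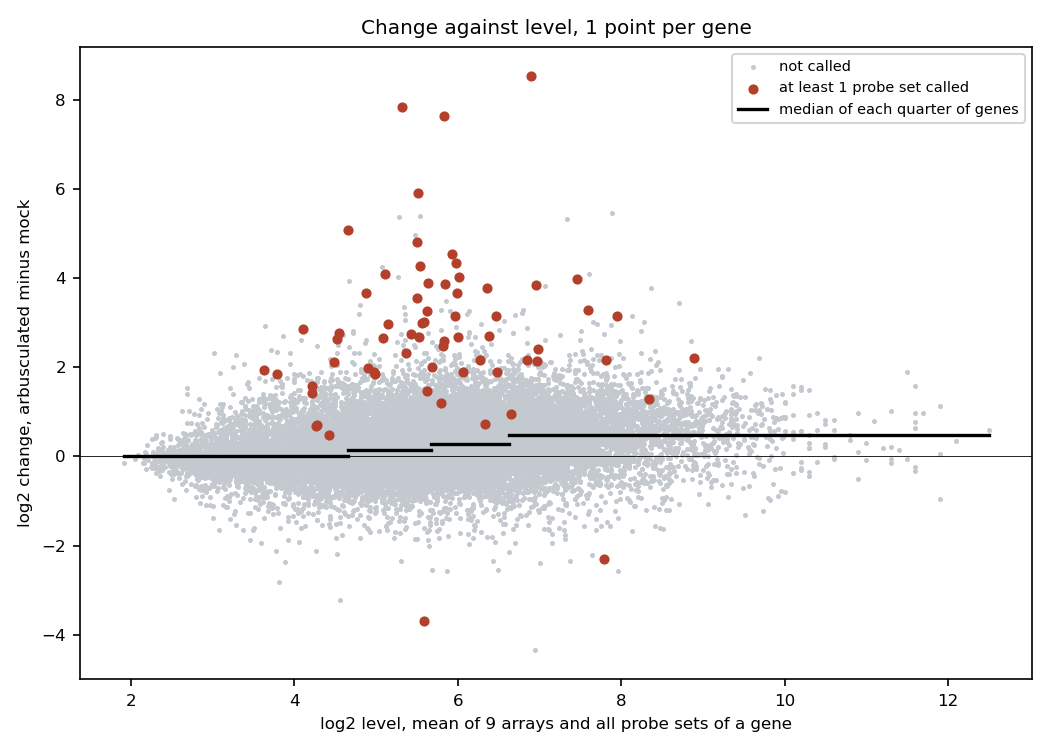
Mean log2 change of each gene (y axis) against its mean log2 level over 9 arrays (x axis), with genes that hold a called probe set in red and the median of 4 level bins as lines. The median goes from 0.01 in the dimmest bin to 0.48 in the brightest, while called genes lie mostly in the middle of the scale.

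Metallothioneins, small metal-binding proteins with bright signals, were above 0 in 6 of 7 genes with a median of 1.14. MT1B read 12.86, 12.79 and 12.85 with arbuscules and 10.21, 12.12 and 10.49 in mock cells, at 1.89 ± 0.48 (limma adjusted p = 0.238). MT4A stood at 2.06 ± 0.54. In both genes mock array 2 was the highest of the mock arrays. Cyclic loess normalisation brought the median to 0.63.

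No gene listed for DNA replication and chromatin passed. Of 57 histone, cyclin and cell cycle genes 43 (75.4%) were above 0, against 63.0% of all genes. Their groups were apart in 16 higher (28.1%, against 11.3% of all genes) and in none lower, against 5.46%, and the median was 0.62, or 0.405 without arbusculated array 1. PCNA (LOC4331062), the sliding clamp of DNA replication, read 9.12, 7.93 and 6.64 in arbusculated cells and 4.46, 4.95 and 4.40 in mock cells, at 3.29 ± 0.83 (limma adjusted p = 0.238). H2B.10, a histone, stood at 2.82 ± 1.2, with mock arrays from 5.08 to 8.26 and systemic arrays at 11.38, 6.94 and 8.26. Also apart were the helicase subunits MCM3, MCM4, MCM5 and MCM7, at 2.28, 2.34, 2.19 and 1.28, chosen after their values were seen. The cyclins CYCA3-2 and CYCP4-1 stood at -1.06 and -0.42.

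Redox enzymes had 42 of 56 genes above 0 and a median of 0.39, which was 0.246 without mock array 1 and 0.251 without arbusculated array 3. Ascorbate peroxidase APX1 stood at 2.28 and the glutaredoxin GRXS1 at 1.91, both with overlapping groups. The secreted-type peroxidase PRX74 read 2.51, 2.89 and 2.75 with arbuscules and 7.66, 3.44 and 5.49 in mock cells, at -2.81 ± 0.86 (limma adjusted p = 0.29). APX8 stood at -0.82.

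Signalling gained transcript at CKI1 (LOC4330018), a casein kinase I. CKI1 read 5.64, 7.01 and 6.40 in arbusculated, 3.78, 3.46 and 3.47 in mock and 4.02, 3.47 and 3.57 in systemic cells, a rise of 2.78 ± 0.34 (limma adjusted p = 0.0273). The 69 kinase genes listed with it had a median of 0.26, from 0.113 without arbusculated array 3 to 0.522 without mock array 2. CIPK18, a kinase driven by calcium sensors, stood at 1.59, CIPK21 at -0.96 and the MAP kinase MPK2 at -0.87. Transcription factors leaned little, with 64 of 115 above 0 and a median of 0.07, which was -0.0243 without arbusculated array 3. MYBS1 stood at 1.89, HAP3B at 1.47, MYB2 at -1.40 and HAP2B at -0.99.

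HIRL1 (LOC4339791) and PPT1 (LOC4346653) complete the named genes that rose. HIRL1, named for the hypersensitive reaction, had a probe set at 10.18, 10.68 and 10.32 in arbusculated cells and 7.19, 8.52 and 7.50 in mock cells, a rise of 2.66 ± 0.34 (limma adjusted p = 0.0299). Its other 3 probe sets were at 1.02, 0.39 and -0.25, and none passed. PPT1 read 7.29, 7.83 and 7.43 in arbusculated, 4.96, 5.25 and 5.83 in mock and 6.40, 5.79 and 5.67 in systemic cells, a rise of 2.17 ± 0.31 (limma adjusted p = 0.0445). With each of the 9 arrays left out in turn, DXR, YSL13, CKI1, HIRL1 and HPT1 each kept the call in 1 fit, and PPT1 in none, with adjusted p of up to 0.129, 0.148, 0.106, 0.12, 0.155 and 0.156.

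No defence gene on the lists passed. Of 22 pathogen response genes 9 were above 0, with a median of -0.14 that was -0.0065 without mock array 2, -0.0135 without mock array 1 and -0.29 without mock array 3. Chitinase Cht10 read 7.03, 8.07 and 6.78 with arbuscules and 3.51, 3.59 and 5.17 in mock cells, at 3.20 ± 0.56 (limma adjusted p = 0.0936). Cht6 read 6.65, 8.66 and 5.58 against 5.11, 4.93 and 4.75, at 2.03 ± 0.66, also apart. Cht7, another chitinase, stood at -0.79 and WRKY71, a regulator of defence, at -0.72. Diterpenoid phytoalexin genes, which make antimicrobial compounds, had 6 of 16 above 0 and a median of -0.15 (0.00849 without mock array 3), from KSL10 at 0.57 and CYP701A8 at 0.21 to CYP76M7 at -0.64 and CYP99A3 at -0.82.

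No cell wall gene on the lists passed. Of 29 cellulose synthase and related genes 10 (34.5%, against 63.0% of all genes) were above 0. Their median was -0.23, but -0.0266 without mock array 1 and -0.0772 without arbusculated array 2. CSLH1, a glucan synthase, read 5.60, 5.99 and 5.17 in arbusculated cells and 4.27, 3.84 and 3.46 in mock cells, at 1.73 ± 0.3 (limma adjusted p = 0.0882). CSLE1 stood at 1.54, and CSLF6, which makes mixed-linkage glucan, at -1.05 with all 3 probe sets lower. Groups were apart in 4 of these genes higher (13.8%, against 11.3% of all genes) and 5 lower (17.2%, against 5.46%). The genes apart lower include CESA7, which is also 1 of the xylem markers described with other cell types.

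Expansins and other wall-loosening genes had 11 of 30 above 0 and a median of -0.19, which was -0.0549 without mock array 1, -0.1 without arbusculated array 3 and -0.339 without arbusculated array 1. Their groups were apart in none higher, against 11.3% of all genes, and in 4 lower (13.3%, against 5.46%). EXPB4 stood at 1.87, EXPB11 at 1.03, EXPA31 at -1.12 and XTH8, a xyloglucan-modifying enzyme, at -1.71. Phenylpropanoid and lignin genes had 5 of 18 above 0 and a median of -0.14, which was -0.0223 without mock array 2 and -0.321 without mock array 3. Among them were CAD1 at 0.54, LAC4 at 0.32, and the laccases LAC19 and LAC3 at -1.24 and -1.07.

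No marker of xylem and sclerenchyma, endodermis, phloem or root hairs passed the test, and their changes ran from -1.36 to 0.77. Markers of dividing cells, such as PCNA at 3.29, are among the cell cycle genes described above. Of those, 43 of 57 were above 0 and none passed. The cellulose synthases of secondary walls, which mark xylem and sclerenchyma, were lower in 3 of 3 genes. CESA7 read 6.69, 6.10 and 6.69 with arbuscules and 7.87, 7.21 and 8.49 in mock cells, at -1.36 ± 0.38 (limma adjusted p = 0.273). CESA4 stood at -0.79 over its probe sets and CESA9 at -0.51, and the median level of the markers was 6.10 to 6.67 on arbusculated and 6.99 to 7.75 on mock arrays. Of the 5 endodermis markers 3 were above 0, with SHR1 at 0.77, Lsi1 at 0.73, SCR1 at 0.66, Lsi2 at -0.06 and CASP1 at -0.13, and their median was 0.66 with all arrays, 0.243 without mock array 1 and 0.01 without arbusculated array 3. The phloem markers SUT2 and SUT1 stood at 0.42 and 0.08, and CSLD1, of root hairs, at -0.63. The part of such cells in the wall lists was not tested.

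Sugar transport and sucrose cleavage had 14 of 31 genes above 0 and a median of -0.07, from -0.273 without arbusculated array 1 to 0.101 without arbusculated array 2, with the invertase NIN3 at 1.27, the sucrose synthases SUS2 and SUS5 at 1.19 and -0.78, and the sugar exporter SWEET14 at -0.96. Water channels, potassium carriers and proton pumps had 21 of 48 above 0 and a median of -0.08 (-0.199 without mock array 3, 0.118 without arbusculated array 2), with TIP3-1 at 2.09, HAK15 at 1.27, HAK27 at -1.35 and the silicon channel Lsi6 at -1.55. Membrane traffic had 14 of 18 (77.8%, against 63.0% of all genes) above 0 and a median of 0.28, which was 0.121 without mock array 1 and 0.67 without mock array 2. Its groups were apart in none higher, against 11.3% of all genes, and in 1 lower (5.56%, against 5.46%). SCAMP2 stood at 1.02, and the small GTPases Rac3, Rac6 and Rac4 at 0.84, -0.79 and -0.85.

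Heat shock genes had a median of 0.21 (0.00556 without arbusculated array 3), with HSP81-2 at 1.58, HSFA2E at 1.38, HSP17.9B at -0.47 and HSFA3 at -0.71. Photosynthesis genes had 2 of 8 above 0 and a median of -0.23 (-0.023 without mock array 1), with CAB2R at 1.17, RBCS1 at 0.07, PSAG at -0.44 and PSAH at -0.63. Of the 33 lists 27 held no called gene, and of the 65 called genes 5 belonged to a list, where the lists together held 927 of the 17905 genes.

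By the test 5 probe sets fell, although more probe sets lay apart lower (14.0%) than higher (6.64%). Without mock array 2 the test called 21 lower. LOC4349605 read 3.57, 4.47 and 3.60 in arbusculated, 6.76, 8.15 and 7.85 in mock and 4.93, 6.16 and 4.69 in systemic cells, and it fell by 3.70 ± 0.5 (limma adjusted p = 0.0372). LOC4342483 read 6.46, 6.65 and 7.29 against 8.58, 9.32 and 9.40, with systemic arrays from 7.32 to 7.64, and fell by 2.30 ± 0.3 (limma adjusted p = 0.0348). Each kept its call in 1 of the 9 fits that leave out an array and lost it on the 6 arbusculated and mock arrays alone, with adjusted p of up to 0.137 and 0.131 over the alternatives. No gene with a name fell.

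The remaining 3 falls were of probe sets paired with no gene or several. OsAffx.7572.1.S1_at read 3.18, 4.93 and 5.07 in arbusculated, 10.25, 11.90 and 11.11 in mock and 4.66, 3.99 and 5.67 in systemic cells, and fell by 6.70 ± 0.65 (limma adjusted p = 0.0117). Os.31795.2.S1_at fell by 5.25 and OsAffx.3564.1.S1_s_at by 3.22. In all 5 falls the systemic mean lay nearer the arbusculated mean than the mock mean, and in 100 of 102 rises it lay nearer the mock mean. The same shares over all probe sets were not counted, and the systemic arrays entered the fit that picked these probe sets. With 5 falls, no contrast between rises and falls is drawn from this.

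Probe sets of the same gene often differed. Of the 3444 genes with more than 1 probe set, 1282 had all higher, 730 all lower and 1432 (41.6%) some of each, and their changes spread over a median range of 0.58. Of the 65 called genes 15 had more than 1 probe set (0.436% of such genes, against 0.346% of genes with 1), and in each exactly 1 probe set passed. In 7 of the 15 all probe sets were higher, among them HPT1, LOC4324944, LOC4330292 and LOC4331329, and in 8 they were mixed, among them PT11, HIRL1 and LOC4350066. In LOC4331329, chosen after its values were seen, the probe sets were 1.80 and 2.00 higher, and in LOC4337822 1 was 2.43 higher and the lowest stood at -0.23.

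**Figure D5:**
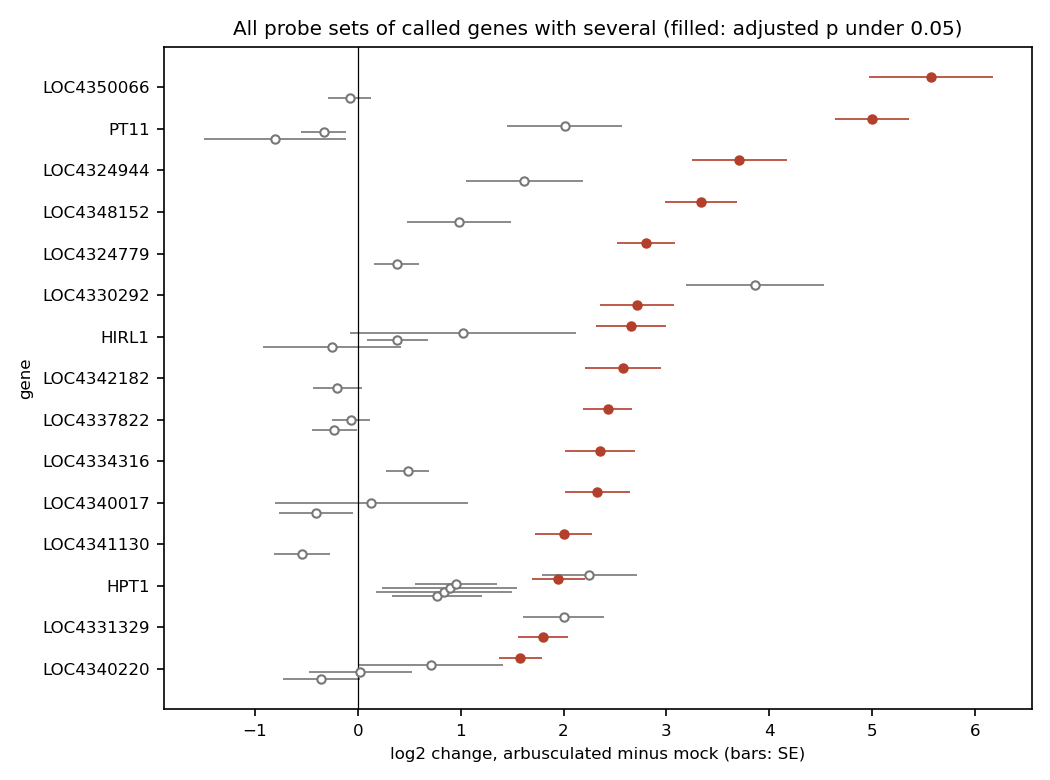
Log2 change of every probe set (x axis, bars show the SE) of the 15 called genes with more than 1 probe set (y axis), filled where the adjusted p is under 0.05. PT11 spans -0.81 to 5.00, and the 6 probe sets of HPT1 lie between 0.77 and 2.25.

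The brightest probe set alone would have found 55 of the 65 called genes. The 10 that passed only on another probe set were PT11, HPT1, LOC4324944, LOC4348152, LOC4324779, LOC4342182, LOC4337822, LOC4334316, LOC4341130 and LOC4340220. Averaging all probe sets of a gene before the fit called 66 genes, 62 higher (0.346%) and 4 lower (0.0223%), of which 53 were also called by a probe set. The 13 others included ENR, LOC4348498 at 5.36, LOC4339414 at 4.96 and LOC4323899 at 4.25, and the falls LOC4329582 at -2.20 and LOC4351442 at -1.71, which were chosen after their values were seen apart from ENR. PT11, HIRL1 and HPT1 were among the 12 lost, and of the 15 called genes with more than 1 probe set, LOC4350066, LOC4330292 and LOC4324944 kept the call, with mean rises of 2.75, 3.28 and 2.67.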

How the data were processed

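Total RNA of laser-captured cells was measured on Affymetrix rice arrays. Values deposited by the authors are on the log2 scale, 1 per probe set, and come from RMA per the submitters' processing notes. RMA corrects background, normalises quantiles and summarises probes. The RMA version is not given in the sources used. These log2 values were used unchanged. Array controls (123 of 57381 probe sets) were left out. The tables paired 22436 probe sets with 1 gene, 95 with several and 34727 with none, and names came from symbols and synonyms in RefSeq's annotation of assembly ASM3414082v1.

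One linear model over 9 arrays with 3 group means was fitted with limma 3.58.1 in R 4.3.3, two-sided, with Benjamini-Hochberg adjustment over 57258 probe sets at 0.05. Adjusted p-values over averaged genes came from the same model on the mean of a gene's probe sets, adjusted over 17905 genes. Changes given with "stood at" are means over all probe sets of a gene. For arrays the number per group, 3, limits precision.

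The members and gene lists were chosen with earlier results of these data known. Lists were written as patterns of gene symbols, 46 members were left out where another name showed another identity, and lists carry counts and medians but no test. Genes named were the 20 largest rises and all falls, all called genes with a name, and the arbuscule, PHT1 and cell type markers. Up to 2 genes per direction of every other list were named too. Among probe sets paired with no gene or several, the 5 largest rises and the falls were named. Deviations of same-numbered arbusculated and mock arrays correlated at -0.0511, -0.285 and -0.0423, so none of these correlations was positive. With so few arrays per group, these values cannot decide whether the numbers pair the samples, and the labels do not say. Alternatives were variance moderation, dim or cross-hybridising probe sets left out, centring, quantile and cyclic loess normalisation, 6 arrays, array weights, a replicate block, averaged probe sets, a 2-fold minimum, and each array left out.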

Additional observations from a re-analysis of the deposited data

How the results depend on the processing

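The 107 called probe sets and 65 called genes became 67 and 37 among the brighter probe sets, 44 and 32 with the 6 arbusculated and mock arrays alone, and 32 and 20 with the replicate block. Leaving out each array in turn gave 20 to 169 probe sets and 13 to 102 genes. The counts of probe sets were 28 without arbusculated 1, 50 without arbusculated 2, 20 without mock 1, 169 without mock 2, 33 without mock 3, 64 without systemic 1 and 71 without systemic 3. Of the 169, 66 were among the 107, and fewer arrays enter each such fit. The other alternatives gave 75 to 138 probe sets, with rises the large majority throughout. Of the lists with at least 3 genes, 16 had a median above that of all genes, and 13 to 16 did under the alternatives. The median change of all genes, 0.20, was 0.25 after centring, 0.19 after quantile and 0.26 after cyclic loess normalisation, and it ran from 0.132 without arbusculated 3 to 0.309 without arbusculated 2. The median over all probe sets, -0.12, stayed below 0 in every fit on probe sets, from -0.163 without arbusculated 2 to -0.0531 after cyclic loess normalisation.

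No called gene changed direction, and the following turns, whose cause was not tested, were in genes that had not passed. For a gene with more than 1 probe set, these values are those of its probe set with the lowest adjusted p, not the gene mean. Averaging all probe sets turned PT1 from -0.235 to 0.27, since its probe sets differ in sign. Array weights turned Lsi2 to 0.0749, SUT1 to -0.000719, AMT3-2 to 0.267 and LAC4 to -0.23. Leaving out each array in turn, values ran for AMT3-2 from -0.938 to 0.0844, for APX8 from -1.39 to 0.0136, for CAD1 from -0.0311 to 1.1, for CASTOR from -1.08 to 0.0411, for CSLD1 from -1.54 to 0.639 and for CYP701A8 from -0.206 to 0.783. They ran for CYP76M7 from -1.2 to 0.00418, for DREB1B from -1.82 to 0.222, for EXPB11 from -0.133 to 2.06, for HMGR3 from -0.496 to 0.311, for HSP17.9B from -0.944 to 0.202 and for LAC4 from -0.183 to 0.847. For others the spans were, for Lsi1 from -0.000731 to 1.6, for Lsi2 from -0.709 to 0.77, for PHO1-3 from -0.534 to 0.29, for PSY1 from -1.06 to 0.252, for RBCS1 from -0.0974 to 0.26 and for RR4 from -2.3 to 0.617. The rest ran for SUT1 from -0.181 to 0.282 and for SUT2 from -0.00024 to 0.735. Spans of the gene means, for instance of SUT2 and PSY1, are not given here.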
